A study of Mus musculus with 3 samples.

Results

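Motile cilia are built from protein families whose genes share a name stem, and 92 of the 33696 features counted in these libraries belong to 7 of those families: the axonemal dynein heavy chains (Dnah), the dynein intermediate chains (Dnai), the cilia and flagella associated proteins (Cfap), the radial spoke proteins (Rsph), the tektins (Tekt), the nexin-dynein regulatory complex subunits (Drc) and the sperm associated antigens (Spag). The 92 genes were taken by symbol alone, so the set also holds a few genes that share a stem but are known for other roles. Of these genes 90 were protein coding, and the other 2, Dnah2os and Spag17os, were long noncoding antisense transcripts.

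The cells came from whole larynges of Lrig1CreERT2/+; ROSA26CAG-LSL-tdTomato/+ mice, in which the Lrig1 promoter drives a tamoxifen-activated Cre and recombined cells make the red protein tdTomato. Red cells were sorted 24 h after recombination, and each of the 3 libraries pooled the larynges of 10 animals, 5 male and 5 female. All libraries were of this 1 condition, with no unrecombined or unsorted library among them. Every comparison is therefore between groups of cells within the same libraries, with n = 3 unless fewer libraries are named. The age of the animals is not given in the sources used here, and tdTomato and Cre were not among the features counted, so the sort itself was not checked.

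A motile cilium is a ring of doublet microtubules around a central pair. Outer and inner dynein arms slide the doublets past each other, radial spokes and the central apparatus shape the beat, and the nexin-dynein regulatory complex links neighbouring doublets. In the airway the multiciliated cells of the surface epithelium carry many such cilia and move mucus, and their genes are switched on together by FOXJ1 and by RFX factors, which bind the X-box motif.

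The promoters of the families held 1 short motif more often than promoters at large. Each promoter was 300 bases long (250 before the start and 50 after, GENCODE, GRCm39). Of 90 member promoters, 32 held the X-box arm GTTGCC on either strand. That is 35.6%, against 11.8% of all 21431 promoters of the same length (2522). For the full X-box only a strict form was searched, both arms (GTTNCC and GGNAAC) with 2 bases between them, and looser forms were not counted. The strict form was in 1 member promoter (Cfap20dc, 1.11%) and in 89 of all promoters (0.415%). The forkhead motif TGTTTAC was in 4 (4.44%) against 676 (3.15%). A full X-box can contain the short arm, so the counts overlap. GTTGCC was in 4 of the 12 promoters of members also active outside ciliated cells, as defined further on, and in 28 of the 78 others, which include members with few or no UMIs in ciliated cells. A match is a description of the letters and does not show that a factor was bound.

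The 150 bases before the start are printed for genes with GTTGCC in that stretch: the 3 with the highest level in ciliated cells among members not active outside them (Spag16, Cfap141 and Cfap44), the 3 highest of the members also active outside (Cfap20, Cfap68 and Cfap300), and Cfap20dc, the gene with the strict full X-box. They lie at chr1:69865886-69866035 (plus strand), chr3:89969953-89970102 (plus), chr16:44215002-44215151 (plus), chr8:96161542-96161691 (minus), chr9:50679753-50679902 (minus), chr9:8042881-8043030 (minus) and chr14:13803300-13803449 (plus), in that order. Capitals mark GTTGCC or its reverse complement GGCAAC.
Spag16: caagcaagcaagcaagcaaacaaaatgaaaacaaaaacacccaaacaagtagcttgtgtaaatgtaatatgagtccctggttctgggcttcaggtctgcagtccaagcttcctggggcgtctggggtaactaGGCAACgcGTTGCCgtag
Cfap141: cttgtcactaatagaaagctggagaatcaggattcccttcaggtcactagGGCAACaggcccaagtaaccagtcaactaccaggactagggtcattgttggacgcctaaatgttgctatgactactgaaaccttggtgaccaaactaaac
Cfap44: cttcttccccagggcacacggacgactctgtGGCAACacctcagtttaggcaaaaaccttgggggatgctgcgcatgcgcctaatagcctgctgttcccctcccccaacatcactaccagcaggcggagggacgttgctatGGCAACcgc
Cfap20: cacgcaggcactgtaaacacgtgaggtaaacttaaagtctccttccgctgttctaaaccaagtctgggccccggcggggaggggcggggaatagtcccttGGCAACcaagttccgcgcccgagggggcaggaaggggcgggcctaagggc
Cfap68: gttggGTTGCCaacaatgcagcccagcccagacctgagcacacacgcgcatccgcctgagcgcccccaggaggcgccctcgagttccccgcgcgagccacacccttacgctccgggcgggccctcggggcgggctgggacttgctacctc
Cfap300: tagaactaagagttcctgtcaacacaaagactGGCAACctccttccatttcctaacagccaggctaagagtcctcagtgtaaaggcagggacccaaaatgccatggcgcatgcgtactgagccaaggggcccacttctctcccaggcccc
Cfap20dc: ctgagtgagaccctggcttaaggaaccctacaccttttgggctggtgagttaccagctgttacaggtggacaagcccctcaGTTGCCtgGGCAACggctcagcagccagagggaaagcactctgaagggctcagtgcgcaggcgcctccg
In Spag16 the arm stood on both strands, 18 and 10 bases before the start. In Cfap20dc the pair stood 69 and 61 bases before it. In Cfap68 the arm was 145 bases upstream, the farthest of the 7.

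Ciliated cells were defined as cells with a unique molecular identifier (UMI, 1 counted RNA molecule) of at least 5 of 6 genes: Foxj1, the master regulator of motile cilia, Ccdc153, Tmem212, Dynlrb2, Tekt1 and Rsph1. Of 44543 cells kept from 60530 barcodes, 475, 274 and 532 were ciliated in libraries 1, 2 and 3, or 1281 in all, and 43262 were not. They made up 3.59% of library 1 (exact 95% binomial interval 3.28 to 3.92), 3.80% of library 2 (3.37 to 4.27) and 2.21% of library 3 (2.02 to 2.40), a mean of 3.20 ± 0.868 (SD, n = 3); such intervals cover counting error only. The median depth of ciliated cells was 10342, 13529 and 5885 UMIs against 10586, 14027.5 and 10545 in the other cells, so library 3 had the lowest share and the shallowest ciliated cells. The label fitted genes that the gate had not used: 20 genes known from motile cilia that are neither family members nor part of the gate averaged 83.5 (Ropn1l) to 862 (Sntn) CPM (counts in every 1000000 UMIs) in ciliated cells, and their level in the other cells had a median of 0.366% of that.

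The libraries totalled 157371185, 109630941 and 293810328 UMIs in kept cells. Libraries shared 46 (1 and 2), 165 (1 and 3) and 96 (2 and 3) cell barcodes, none of them between ciliated cells. Libraries did not fill the clusters alike: of 3677 cells in cluster 2 (median 5700 UMIs) library 3 held 3674, of 1962 and 1508 cells in clusters 9 and 11 it held 5 and 38, and of 364 in cluster 27 library 2 held 346. These were the 4 clusters with under 3% of their cells from a library. The counts over all cells and the count active outside ciliated cells were repeated without cluster 2 and without all 4.

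The families took 31557, 33603 and 31264 CPM of all UMIs in the ciliated cells of the 3 libraries and 792, 771 and 781 CPM in the other cells. Levels are CPM of the UMIs summed over the cells of a group in 1 library. They count tags near the 3′ end and are not scaled by gene length, so they are compared between groups of cells for 1 gene; their order across genes served only to choose which genes to name. In ciliated cells 65 members reached 100 CPM, 5 reached 1000 CPM and 9 stayed under 1 CPM, of which Spag11a, Spag11b and Rsph6a were at 0 in every library.

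**Figure D1:**
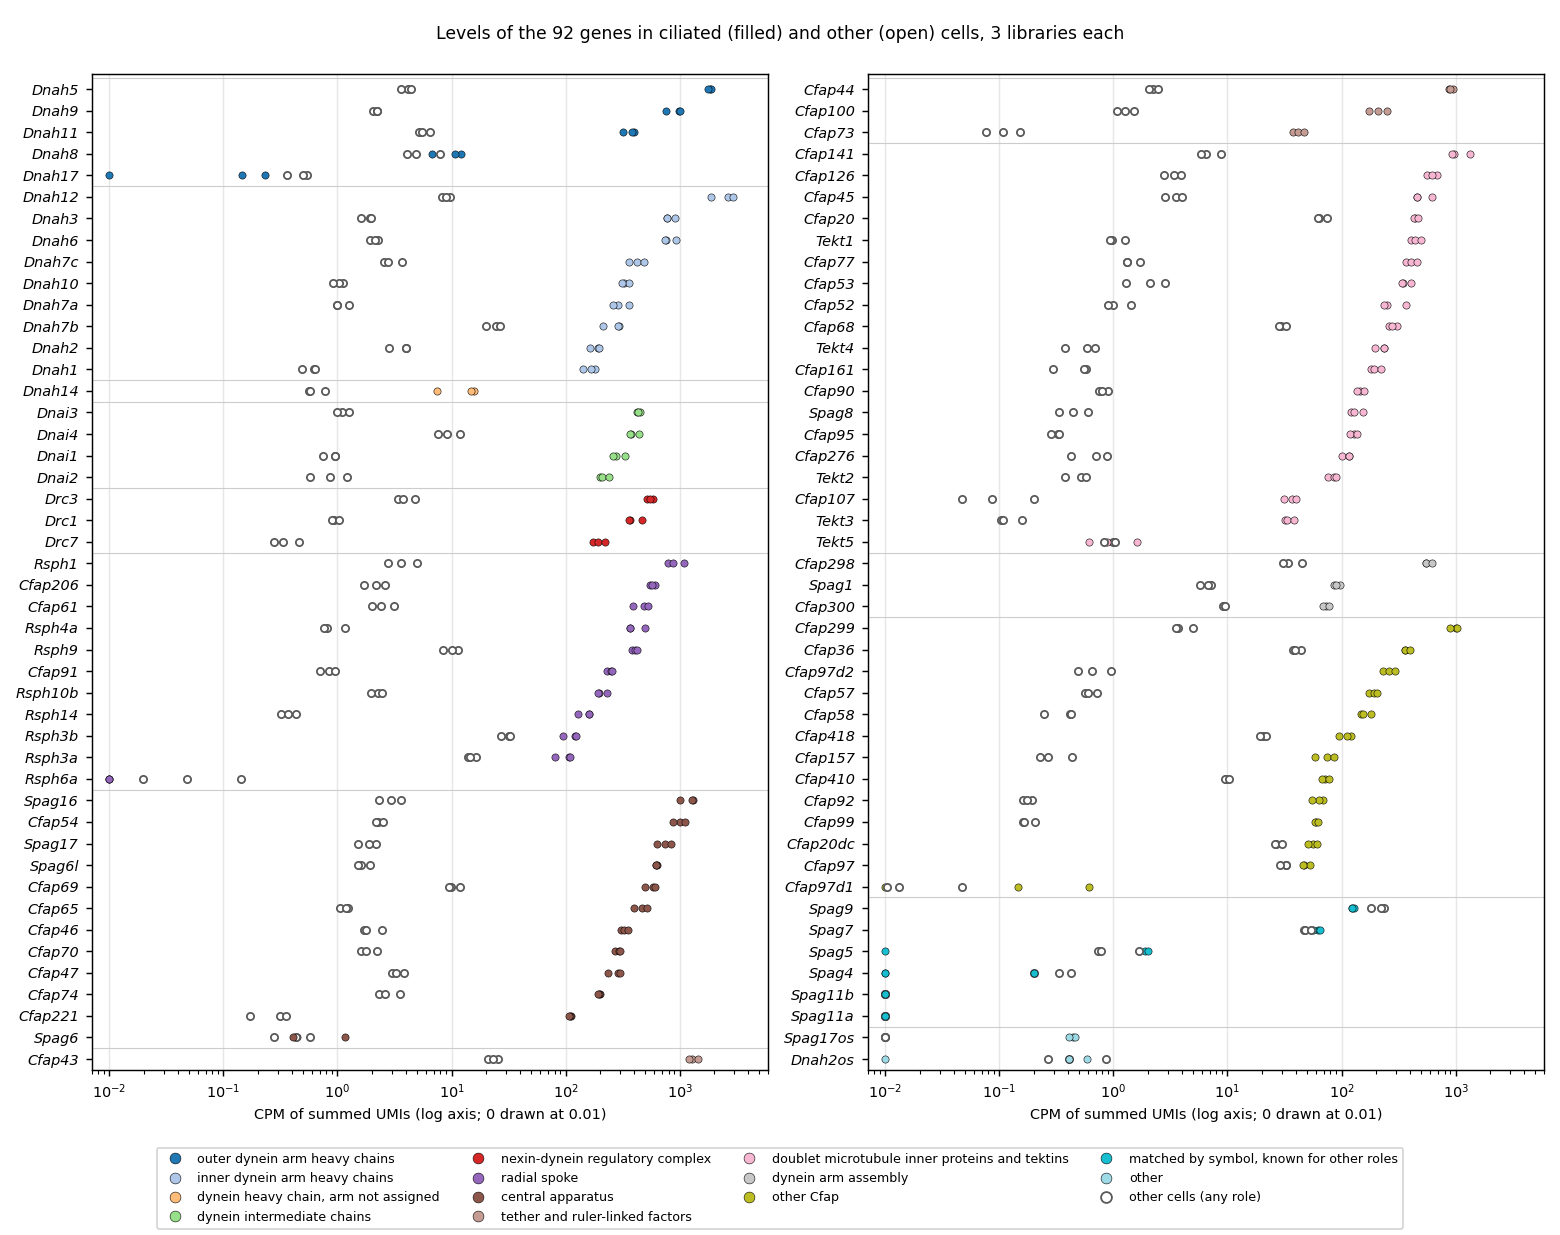
Level of each of the 92 genes in the 3 libraries, in CPM of summed UMIs on a log axis, with values of 0 drawn at 0.01; filled points are ciliated cells, coloured by the gene's role, and open points are the other cells. For most genes the filled points lie to the right of the open ones by a wide gap, as for Dnah5 (1843, 1862 and 1766 CPM against 4.16, 3.63 and 4.43 CPM), while Spag9 lies the other way.

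Across 85 members tested, 78 were higher in ciliated cells and 1 (Spag9) was lower, in edgeR's quasi-likelihood test with Benjamini-Hochberg adjustment over 19190 genes. Among all genes tested 28.2% were called higher and 34.2% lower. The counts of members were also 78 and 1 without cluster 2 (28.2% and 34.4% of genes) and without the 4 uneven clusters (30.1% and 35.4%). The median log2 fold change was 7.67 over the members and -0.20 over all genes. The 6 gate genes define the groups, so Tekt1 and Rsph1 are given as values only, and 5 further members had too few counts to be tested. The members tested but not called were Spag4, Dnah17, Dnah2os, Tekt5, Spag5 and Spag6. With the library as a block the same 78 genes were called higher.

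Outer dynein arm heavy chains, the motors that drive beat frequency, were measured for 5 genes. Dnah5 reached 1843, 1862 and 1766 CPM in ciliated cells of libraries 1, 2 and 3, with a log2 fold change of 8.99 ± 0.176 (SE; edgeR adjusted p = 3.06e-08, n = 3). Dnah9, its partner along the outer part of the cilium, reached 988, 1013 and 753 CPM (918 ± 144 SD), and 2.16 CPM in the other cells. Both were far above the other cells in every library. Dnah11, the heavy chain of the part near the cell, averaged 367 ± 43.8 CPM against 5.73 CPM, a log2 fold change of 6.18. Dnah8 and Dnah17, best known from sperm flagella, had few UMIs: Dnah8 had 12.05, 6.71 and 10.8 CPM in ciliated cells against 4.89, 4.08 and 7.90 CPM in the others (log2 1.00 ± 0.327, edgeR adjusted p = 0.0292), and the 2 groups overlapped across libraries. That call was lost without library 1 (log2 0.71) and without library 2 (0.99). Dnah17 had 1, 1 and 0 UMIs in ciliated cells.

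Inner dynein arm heavy chains, which shape the bend, were all higher in ciliated cells (9 of 9 tested, median log2 8.30). Dnah12 had 2660, 2904 and 1876 CPM against 8.18, 9.67 and 9.02 CPM, the lowest ciliated value being that of library 3 (log2 8.29 ± 0.263, edgeR adjusted p = 1.73e-07). Dnah3 averaged 821 ± 78.8 CPM and Dnah6 816 ± 104 CPM, each at about 2 CPM in the other cells (1.85 and 2.11). The near-identical genes Dnah7a, Dnah7b and Dnah7c can share reads, so their split is uncertain; Dnah7a and Dnah7c had 1.09 and 2.99 CPM outside ciliated cells, whereas Dnah7b had 23.6 ± 3.34 CPM. Dnah14, whose arm is not assigned, was at 15.9, 14.8 and 7.51 CPM against 0.784, 0.560 and 0.578 CPM.

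The intermediate chains at the base of the arms were higher too, all 4 of them, with a median log2 of 8.31. Dnai1 and Dnai2, of the outer arm, averaged 290 ± 35.3 and 216 ± 20.6 CPM, and Dnai3, of an inner arm, 435 ± 14.2 CPM with 1.12 CPM outside. Dnai4 was the exception in its family, at 9.16, 7.61 and 11.9 CPM in the other cells, or 2.41% of its ciliated level of 393 CPM. The 3 Drc genes, which tie doublets together, were also called: Drc7 had 175, 191 and 219 CPM against 0.332, 0.275 and 0.460 CPM, and its log2 fold change of 9.22 ± 0.221 was the largest of the members tested (edgeR adjusted p = 4.99e-08). Drc3 and Drc1 averaged 552 and 398 CPM in ciliated cells.

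Radial spoke genes were higher in all 9 tested, with a median log2 of 7.73. Of the spoke head, Rsph1 (in the gate) had 790, 869 and 1099 CPM, Rsph4a averaged 410 ± 75.4 CPM and Rsph9 404 ± 19.0 CPM. Rsph9 kept 10.0 ± 1.54 CPM in the other cells, against 0.914 CPM for Rsph4a. Rsph6a, known from sperm, had no UMI in any ciliated cell, which at 3 counts allows no more than about 0.441 to 0.694 CPM a library. The stalk genes Rsph3a and Rsph3b, near-copies of each other, had the lowest contrast of the spoke, with log2 fold changes of 2.92 and 2.06. The spoke base genes Cfap206, Cfap61 and Cfap91 averaged 576, 469 and 243 CPM.

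The central apparatus, which regulates the arms through the spokes, held 12 members, of which 11 were higher (median log2 8.13). Spag16 had 1295, 1284 and 1011 CPM against 2.30, 2.96 and 3.59 CPM (log2 8.84 ± 0.258, edgeR adjusted p = 1.15e-07). Cfap54 averaged 994 ± 127 CPM and Spag17 740 ± 97.3 CPM. Spag6l averaged 624 ± 8.60 CPM, while its near-copy Spag6 had 3, 5 and 2 UMIs and was not called (log2 0.75, edgeR adjusted p = 0.295). Cfap69 was the central apparatus gene with the most signal outside, 10.5 ± 1.29 CPM.

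Among the tether and ruler-linked factors, which anchor the inner arms, Cfap43 had 1280, 1453 and 1218 CPM against 20.8, 25.4 and 23.3 CPM (log2 6.01 ± 0.169, edgeR adjusted p = 9.43e-08), and Cfap44 averaged 903 ± 39.0 CPM against 2.24 CPM. Cfap43 overlaps Itprip on the same strand, and the part of that gene's reads in its count was not tested. Cfap100 and Cfap73 averaged 212 and 42.2 CPM.

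The proteins inside the doublets and the tektins, which stiffen them, made up 19 members, and 17 of 18 tested were higher (median log2 7.69). Cfap141 had 973, 921 and 1329 CPM against 6.51, 5.83 and 8.77 CPM, highest in library 3 (log2 7.43 ± 0.259, edgeR adjusted p = 2.86e-07). Cfap126, Cfap45 and Tekt1 averaged 622, 514 and 447 CPM. Tekt2, Tekt3 and Tekt4 were higher in ciliated cells and averaged 83.8, 34.5 and 223 CPM, whereas Tekt5, known from sperm, had 6, 7 and 3 UMIs.

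The 3 family members that help assemble dynein arms in the cytoplasm were higher in ciliated cells by less, with a median log2 of 3.98. Outside the families, 13 genes of a list that mixes dynein assembly with docking had a median of 7.19 and were uneven. They ran from 1.45 (Dnaaf9), with Dnaaf2 at 2.83 and Dnaaf5 at 2.92, to 8.73 (Dnaaf1) and 8.95 (Odad2). Cfap298 had 547, 545 and 620 CPM against 34.0, 30.8 and 44.8 CPM, Spag1 averaged 90.7 against 6.52 CPM and Cfap300 73.1 against 9.34 CPM. The other 13 Cfap genes, of less settled place, included 12 that were tested and all were higher. Cfap299 averaged 980 ± 80.6 CPM, and Cfap36, which binds the small GTPase ARL3, 374 ± 20.1 CPM.

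Other ciliary genes outside the families were also mostly higher in ciliated cells. In edgeR's test, 22 of 22 further axonemal genes were higher (median log2 7.84; Hydin 8.95 ± 0.174), 13 of 13 genes of dynein assembly and docking (7.19; Odad2 8.95 ± 0.129), 8 of 8 dynein light chains (2.46; Dynll1, which also serves cytoplasmic dynein, 2.57 ± 0.342) and 8 of 8 tested regulators of the multiciliated state (3.31; Rfx3 3.03 ± 0.139). Of 25 genes of intraflagellar transport, which builds all cilia, 24 were higher (median 3.12; Ift88 3.86 ± 0.117) and Ttc21b was lower (-0.58 ± 0.178, edgeR adjusted p = 0.0230). Foxj1 itself is a gate gene and was not tested.

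A member was called active outside ciliated cells where the other cells had at least 1 CPM and at least 10% of the ciliated level in each library. Of 92 genes, 12 met this rule: Cfap20, Cfap68, Cfap97, Cfap300, Cfap410, Cfap418, Cfap20dc, Rsph3a, Rsph3b, Dnah8, Spag7 and Spag9. With a limit of 0.2 of the ciliated level in place of 0.1 the number was 6. It was 12 without cluster 2 and without the 4 uneven clusters. Of the 12, 11 were still called higher in ciliated cells. Their levels outside ran from 10.6% (Cfap68) to 169% (Spag9) of the ciliated level, with a median of 23.3%. Just inside the limit stood Cfap68, and just outside it Cfap36, with 12.3%, 10.3% and 9.80% in libraries 1, 2 and 3, and Dnah7b, with a mean of 8.99%.

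The 20 ciliated genes outside the families gave a measure of how low a level to read, with 0.174% to 3.91% of their ciliated level in the other cells and 18 under 1%. The other 70 members with enough counts had a median of 0.371%, and 55 were under 1%, in the range of those 20 genes. The part of free RNA and of ciliated cells missed by the gate in these levels was not tested. A further 13 were between 1% and 10%, among them Dnai4, Rsph9, Cfap69 and Cfap43, and 2 were over 10% (Cfap36 and Tekt5). Against other cells with 0 or 1 of the 6 gate genes detected, the median fell to 0.289%, with 56 under 1%.

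**Figure D2:**
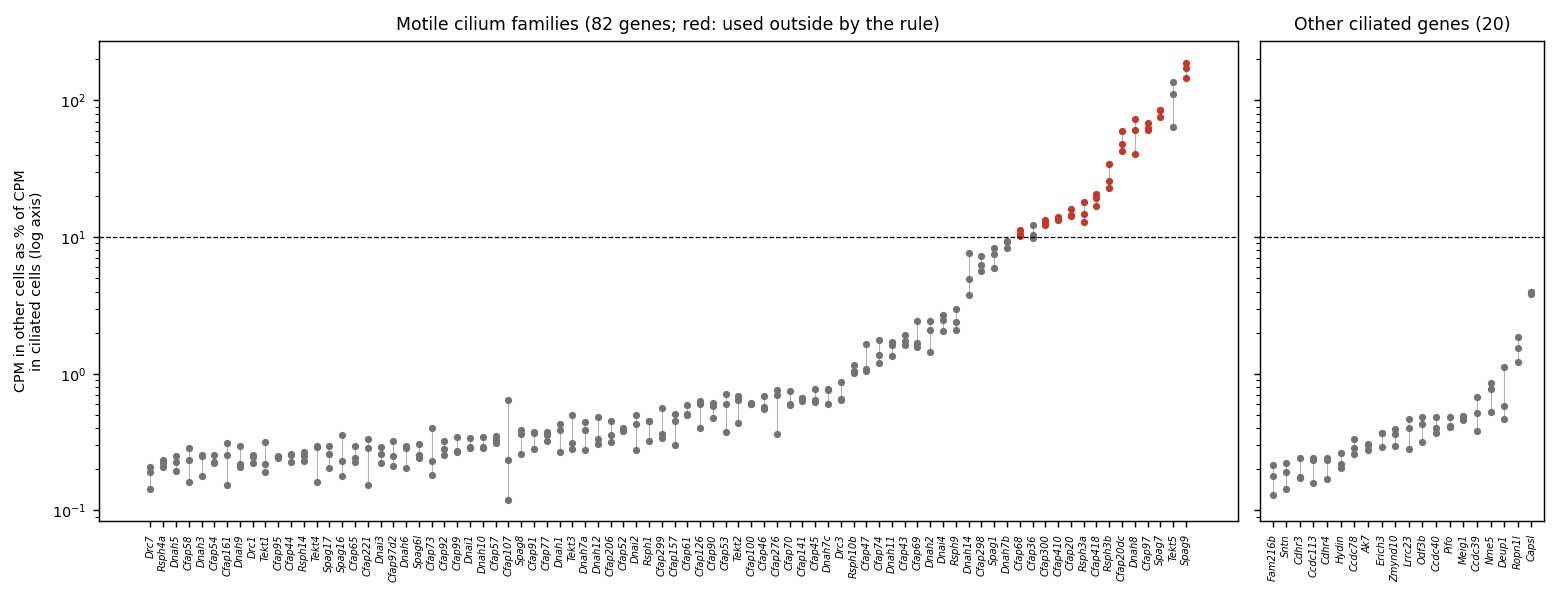
Level in the other cells as a percentage of the level in ciliated cells, on a log axis, for 82 family members with enough counts (left) and 20 other ciliated genes (right); each point is 1 library, and red marks the 12 genes active outside by the rule, above the dashed line at 10% in all libraries. Most members lie in the range of the other ciliated genes, from 0.174% to 3.91%, and a tail rises to Spag9 at 169%.

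Cfap20, a protein of the doublet's inner junction, averaged 28.8 CPM (macrophage-like cells) or more in each cell class measured. It had 440, 436 and 466 CPM in ciliated cells against 63.7, 62.1 and 74.6 CPM elsewhere (log2 2.93 ± 0.113, edgeR adjusted p = 4.91e-07). Thinned to 5000 UMIs a cell, 85.7% of ciliated and 27.7% of other cells had a Cfap20 UMI (means of 3 libraries; 87.8% and 49.3% unthinned), against 94.6% and 3.61% for Cfap141 (95.9% and 7.98%). Thinning left out 405 ciliated and 8747 other cells that were shallower.

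Spag9, a scaffold that links kinases to motor proteins and has no known place in the axoneme, was the only member called lower in ciliated cells. It had 124, 128 and 123 CPM there against 235, 220 and 180 CPM in the others, without overlap (log2 -0.58 ± 0.127, edgeR adjusted p = 0.00514). Among 13 cell classes ciliated cells had the lowest level and endothelial-like cells the highest, with 393, 358 and 426 CPM. The call was lost without library 1 (log2 -0.52). Spag7, another gene that shares the stem only, had 62.0, 56.4 and 64.1 CPM against 46.6, 47.7 and 54.2 CPM (log2 0.48 ± 0.102, edgeR adjusted p = 0.00452), and lost its call without library 1 (0.40).

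Cell classes were named "-like" from marker genes of clusters made without any member or gate gene, and a class was used in a library where it had 20 cells or more. Of 34 clusters, 14 with 57.6% of the cells stayed unnamed, so the classes describe part of the cells. Class levels carry no test.

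Cfap20dc, a paralog of Cfap20 whose promoter held the strict full X-box, was higher in secretory-like cells than in ciliated ones. It had 71.0, 63.5 and 68.8 CPM in secretory-like cells and 55.7, 61.5 and 50.9 CPM in ciliated cells, with no overlap. Gland acinar-like cells followed at 27.9 ± 5.68 CPM, and muscle satellite-like cells had 1.40 CPM. Within the secretory-like class cluster 16 was highest, at 92, 73.4 and 76.8 CPM.

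Dnah8 followed another order, with 22.1, 17.0 and 21.9 CPM in cycling-like cells, 0.898 and 26.4 CPM in neuroendocrine-like cells of the 2 libraries measured, 10.6 ± 0.686 CPM in fibroblast-like cells and 9.84 ± 2.79 CPM in ciliated cells, while secretory-like and gland acinar-like cells were at 0.707 and 0.361 CPM. Dnah8 was highest in an unnamed cluster (number 22), at 29.4, 42.7 and 37.7 CPM. That cluster was shallow, with 198, 158 and 437 cells and a median of 1702 UMIs, and its top genes were Gnat3, Irag2 and Rgs13. Cycling-like cells were above ciliated cells in each library for this outer arm gene.

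Neuroendocrine-like cells, of which libraries 1 and 2 held 51 and 25 and library 3 too few to use, came next after ciliated cells for several members. Cfap418, a gene of photoreceptor disease, had 73.6 and 73.0 CPM there against 109 CPM in ciliated cells. Cfap300 had 27.8 and 26.4 CPM, against 12.5 CPM in basal-like cells and 0.438 CPM in macrophage-like cells. Cfap36 and Dnah7b, below the rule, had 151 and 44.0 CPM there. For Cfap97 the mean there was above that of ciliated cells (51.8 against 48.6 CPM), but not in library 2 (49.7 against 53.0 CPM).

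A pair of members with almost no signal in ciliated cells had their own place, chosen after their values were seen. Tekt5 had 71.8 and 88.6 CPM in the neuroendocrine-like cells of libraries 1 and 2, from 80 and 57 UMIs, against 0.882, 1.62 and 0.609 CPM in ciliated cells. Spag5, which encodes a mitotic spindle protein, had 7.41, 3.84 and 6.91 CPM in cycling-like cells and 1.91, 0 and 2.03 CPM in ciliated cells. For both genes these classes held the highest mean of all classes measured.

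**Figure D3:**
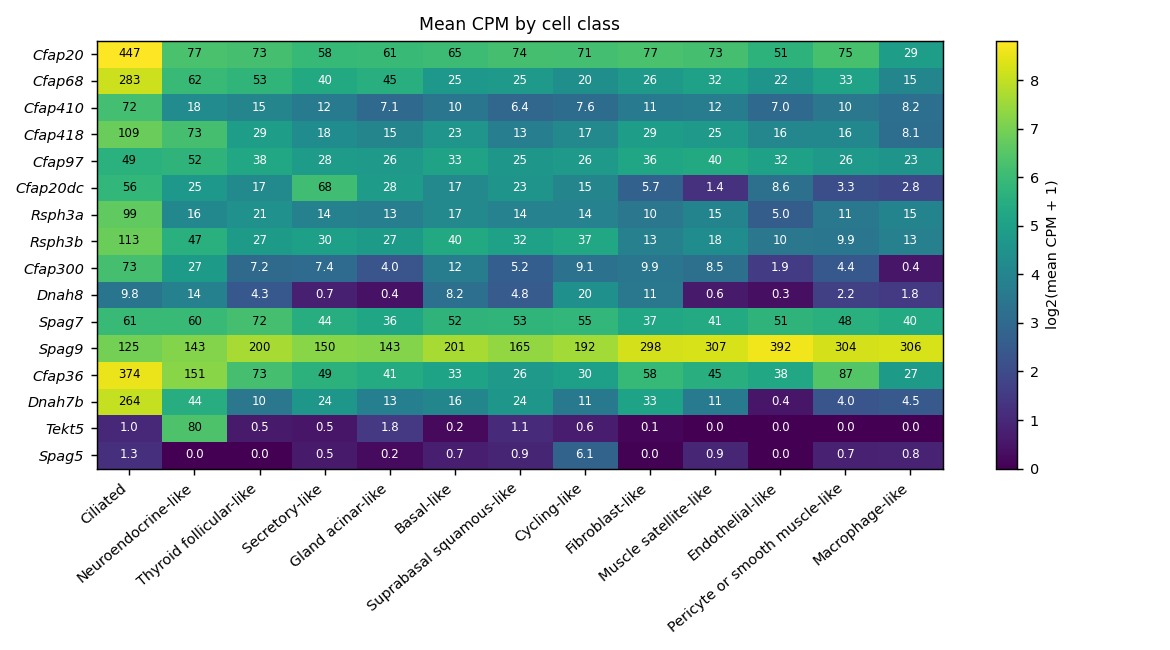
Mean CPM over libraries of 16 members (rows: the 12 active outside ciliated cells, then Cfap36, Dnah7b, Tekt5 and Spag5) in ciliated cells and in 12 named classes (columns), with the value printed in each square and the colour giving log2(mean CPM + 1). Cfap20dc is brightest in secretory-like cells, Tekt5 in neuroendocrine-like cells and Spag9 in endothelial-like cells, whereas Cfap20 is spread over all classes. The neuroendocrine-like and the pericyte or smooth muscle-like means are of 2 libraries.

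Ciliated cells fell into 2 clusters that differed in depth, which together held 1256 of the 1281. The shallower one had 205, 122 and 384 ciliated cells, with medians of 5557, 5571.5 and 4409 UMIs, and the deeper one 265, 144 and 136, with 19729, 22453 and 17828 UMIs. Cells with an Lrig1 UMI made up 16.6%, 19.7% and 14.8% of the shallower and 64.2%, 70.8% and 62.5% of the deeper cluster. The clusters were made without members, but from genes of the same cells, so their differences are a description with no test.

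The family genes did not keep the same proportions in both clusters. Of 81 members with at least 10 CPM in either cluster, 49 had a higher level in the deeper cluster in all 3 libraries and 28 a lower one, beside 37.7% and 35.8% of 9842 genes above the same level. Cfap61 stood at 77.7, 84.5 and 108 CPM in the shallower cluster and 609, 675 and 680 CPM in the deeper, and Dnah12 at 599, 493 and 596 against 3300, 3686 and 3178 CPM. Cfap141 went the other way, with 1553, 1474 and 1688 against 823, 824 and 1087 CPM. So did Rsph1, with 1337, 1387 and 1420 against 647, 778 and 877 CPM. Rsph1 is a gate gene, so shallow cells were selected in part for its detection, and its values are no independent example. The same holds for Tekt1. Dnah5 differed less, with a log2 difference of 0.51 ± 0.0064 (SD).

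The direction moved with the length of the gene on the chromosome, in the families as over all genes. Of 23 members spanning at least 100 kb, 22 were higher in the deeper cluster in all libraries and 0 lower, with a median log2 difference of 1.75. Of 58 shorter members, 27 were higher and 28 lower, with a median of -0.03. Over genes of any span, 37.7% were higher and 35.8% lower in all libraries. Genes at large were not split at 100 kb, so the share among all long genes is not known here. Spearman's rho between span and difference was 0.718 over the 81 members and 0.604 over 9828 genes, which share their libraries and cells. Whether reads in introns were counted is not given in the sources used here, and the part of intron reads and of depth in this pattern was not tested.

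**Figure D4:**
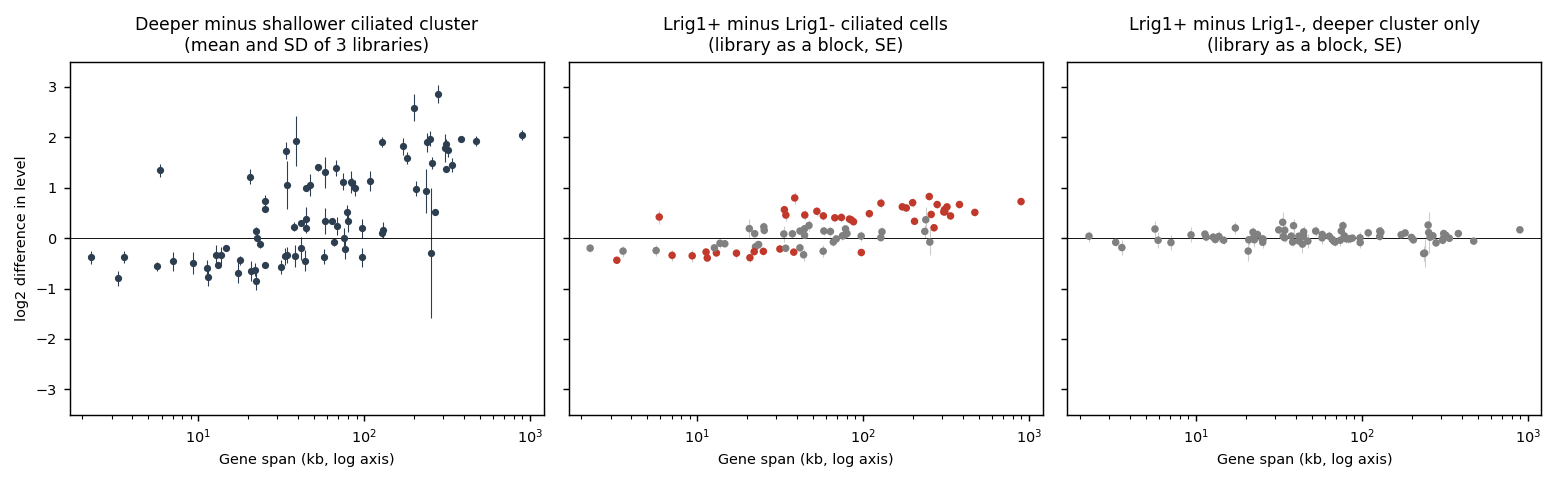
Log2 difference in level (vertical axis) against gene span in kb (log axis) for family members: deeper minus shallower ciliated cluster (left, mean and SD of 3 libraries), Lrig1+ minus Lrig1- ciliated cells (middle, fit with the library as a block, SE) and the same within the deeper cluster (right); red marks adjusted p under 0.05. Most members over 100 kb lie above 0 on the left (22 of 23 in all libraries) and in the middle (18 of 23 called higher, with Dnah8 at -0.08), with rho of 0.718 and 0.681, and the points on the right lie near 0 with no red (rho of 0.073; the shallower cluster, not drawn, had 0.274).

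The study compared cells with an Lrig1 UMI (Lrig1+) with cells without one (Lrig1-), and Lrig1+ cells above their library's median normalized Lrig1 (Lrig1High) with all other cells (Lrig1Low), to describe the cells that make this marker of quiescent stem cells. The cells compared within a library were from 1 pool of animals. Without the library as a block, edgeR called 0 of 87 members higher and 0 lower in Lrig1+ cells, where it called 0.0% of all 19796 genes higher and 0.00505% lower. At an unadjusted p under 0.05 there were 3 members, against 14.5% of all genes, and 14 without library 3 (12.9% of genes). DESeq2 called 1 member higher and 0 lower, against 0.821% and 2.89% of genes. For Lrig1High against Lrig1Low it called 0 and 0 of 87 (0.0% of genes in either direction), with 16 members at an unadjusted p under 0.05 (11.8% of genes). That number was 2 without library 2 (4.52% of genes) and 49 without library 3 (14.2%). DESeq2 called 1 member higher and 3 lower, against 0.526% and 1.31% of genes.

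With the library as a block, 3 members were higher and 1 lower in Lrig1+ cells, against 11.5% and 14.4% of all genes. Cfap20dc had 34.1, 29.7 and 33.1 CPM in Lrig1+ cells and 20.4, 22.9 and 26.5 CPM in Lrig1- cells, without overlap (log2 0.51 ± 0.088, edgeR adjusted p = 0.0172). Rsph3b had 36.7, 37.3 and 36.1 against 24.9, 31.2 and 29.8 CPM, also without overlap (0.39 ± 0.067, edgeR adjusted p = 0.0169). Dnah7b was higher in each library (log2 0.41) and Spag4, a nuclear envelope gene, was lower (-1.04) at under 1 CPM. Without cluster 2 the counts were again 3 and 1 (12.2% and 15.0% of genes), as they were without the 4 uneven clusters (11.5% and 15.2%). The 3 higher genes all had levels outside ciliated cells of at least 8.99% of the ciliated level.

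Sums over a mixture of cells cannot tell fewer ciliated cells from less RNA per cell, so ciliated cells were also left out. They made up 3.86%, 3.17% and 1.23% of Lrig1+ cells (2.75 ± 1.36) and 3.41%, 4.63% and 3.18% of Lrig1- cells (3.74 ± 0.782). Without them and with the block, 5 members were higher in Lrig1+ cells, against 13.1% of all genes (Cfap20dc 0.54, Rsph3b 0.38, Dnah7b 0.35, Cfap43 0.34 and Rsph3a 0.25), and 30 were lower, against 17.1%. Of 86 tested the median was -0.44, and Dnah5 (-1.06), Dnah3 (-1.23) and Spag17 (-1.16) were among those lower. Without the block 0 of 86 were called, with 30 at an unadjusted p under 0.05 (15.9% of genes). Tekt1 and Rsph1 are gate genes. They were not removed from the Lrig1 fits that left cells out by the gate, so their values there are no independent result.

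The gate for ciliated cells depends on depth, and Lrig1- cells were shallower, with medians of 7209, 9729 and 6414 UMIs against 14954, 17626 and 14558 in Lrig1+ cells. Cells with 2 to 4 of the gate genes made up 3.06%, 2.42% and 3.62% of the remaining Lrig1+ cells and 1.98%, 2.26% and 5.34% of the remaining Lrig1- cells. In cells with 0 or 1 of the gate genes only, 84 members were tested and 0 called without the block (17 at an unadjusted p under 0.05, against 15.3% of genes). With the block 6 were higher (13.2% of genes) and 12 lower (16.8%), neither more often than genes at large. Spag17 was then at 0.841, 0.847 and 0.949 CPM in Lrig1+ cells and 1.43, 1.77 and 2.23 CPM in Lrig1- cells (log2 -1.004 ± 0.162, edgeR adjusted p = 0.0111), against 740 CPM in ciliated cells. The part of missed ciliated cells and free RNA in such low levels was not tested.

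In Lrig1High against Lrig1Low cells the block gave 2 members higher (Cfap20dc 0.42 and Rsph3b 0.19) and 58 lower, against 11.6% and 15.2% of all genes, with a median of -0.69. Without cluster 2 it gave 2 and 62 (13.2% and 17.8% of genes), and without the 4 uneven clusters 2 and 59 (11.5% and 17.4%). Tekt4 had 5.71, 4.59 and 1.98 CPM in Lrig1High and 10.1, 11.6 and 5.49 CPM in Lrig1Low cells (log2 -1.19 ± 0.156, edgeR adjusted p = 0.0103), and Dnah5 66.1, 41.5 and 19.5 against 88.5, 90.6 and 38.6 CPM (-0.82 ± 0.142, edgeR adjusted p = 0.0157). Each was lower within every library, while the groups overlapped across libraries. Median depths were 11428, 13475 and 9958 UMIs in Lrig1High and 10365, 14247 and 10579 UMIs in Lrig1Low cells. These were closer than in Lrig1+ against Lrig1- cells, and the part of depth in either comparison was not tested. Ciliated cells made up 2.76%, 1.76% and 0.881% of Lrig1High cells (1.80 ± 0.940) and 3.80%, 4.62% and 2.65% of Lrig1Low cells (3.69 ± 0.990).

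Without ciliated cells this direction was gone, with 9 members higher and 2 lower of 84, against 9.75% and 13.0% of all genes with the block, and none called without it (6 at an unadjusted p under 0.05, against 10.4% of genes). Tekt4 then had 0.462, 0.401 and 0.807 CPM against 0.627, 0.371 and 0.655 CPM (log2 0.02). The 2 lower genes were Spag5 (-1.52), at 0.40, 0.234 and 0.694 against 0.830, 0.995 and 2.02 CPM, and Dnah8 (-0.53), at 3.39, 3.34 and 5.89 against 5.31, 4.38 and 8.55 CPM. Among the named classes both had their highest mean in cycling-like cells, but Dnah8 was higher still in the unnamed cluster 22. Cfap20dc stayed higher, at 35.6, 32.5 and 36.2 against 24.2, 23.6 and 28.4 CPM (log2 0.45 ± 0.059, edgeR adjusted p = 0.0146). In cells with 0 or 1 gate genes the counts of 82 members tested were 6 higher (10.0% of genes) and 2 lower (13.4%) with the block, and 0 without it (6 at an unadjusted p under 0.05, against 10.5% of genes).

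**Figure D5:**
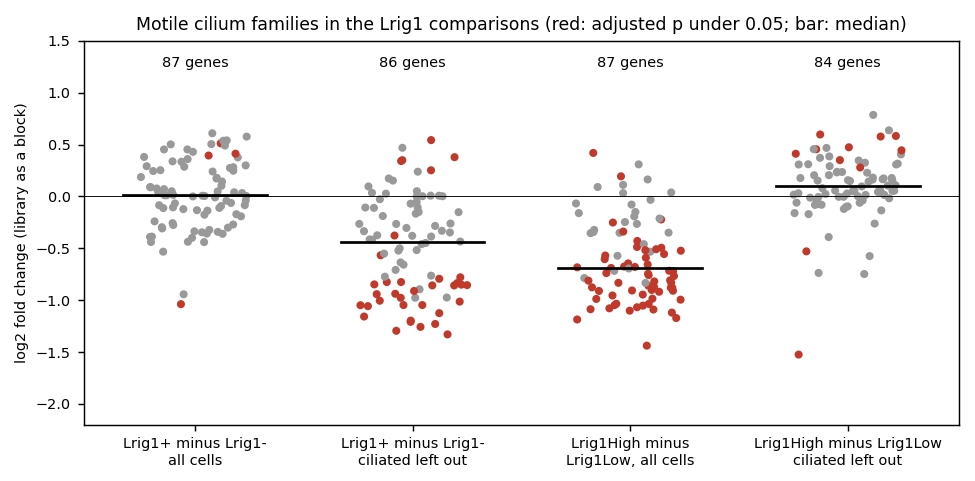
Log2 fold changes of the family members tested (points, fits with the library as a block) in Lrig1+ against Lrig1- cells and in Lrig1High against Lrig1Low cells, with all cells and with ciliated cells left out; red marks adjusted p under 0.05 and the bar is the median. The medians are 0.01, -0.44, -0.69 and 0.10 from left to right, so leaving ciliated cells out moves the members down in the first comparison and up in the other.

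Within ciliated cells, 207, 130 and 148 were Lrig1+ and 268, 144 and 384 Lrig1-, with medians of 22846, 21340 and 15555.5 against 6303, 7494 and 4710.5 UMIs. Without the block edgeR called 0 of 79 members in either direction (0.0% of 11729 genes), with 34 at an unadjusted p under 0.05 (22.4% of genes), and 18 without library 1 (9.69% of genes). Without the filter on low counts edgeR called 19 of 87 members higher and 0 lower, against 3.24% and 0.71% of genes. DESeq2 called 21 members higher and 3 lower, against 1.54% and 1.06% of genes. With the block 30 were higher and 13 lower in Lrig1+ cells, against 11.0% and 10.7% of all genes.

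Most members over 100 kb were again higher, with some shorter ones. Spag16, which spans 898 kb, had 1487, 1471 and 1337 CPM in Lrig1+ and 942, 924 and 698 CPM in Lrig1- ciliated cells (log2 0.73 ± 0.066, edgeR adjusted p = 7.92e-05), without overlap. Cfap47 (0.83), Cfap99 (0.80, spanning 38.7 kb), Dnah12 (0.70) and Dnah2 (0.69) were also higher, and Dnah5 had 1975, 1946 and 1896 against 1601, 1701 and 1640 CPM (0.21). Cfap141, which spans 3.27 kb, was lower, with 863, 855 and 1106 against 1177, 1048 and 1542 CPM (-0.44 ± 0.063, edgeR adjusted p = 0.000477), as were Cfap298 (-0.39) and Cfap161 (-0.39). Of 23 members over 100 kb, 18 were called higher and 0 lower, and of 56 shorter ones 12 and 13. Over genes of any span these shares were 11.0% and 10.7%, and genes at large were again not split at 100 kb. Spearman's rho with span was 0.681 over 79 members and 0.467 over 11704 genes.

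No member was called within either cluster of ciliated cells. In cells with at least 5000 UMIs the block gave 28 higher and 9 lower, all of them among the 30 and 13 (7.78% and 7.37% of genes), and the fit without it 0 of 79 (31 at an unadjusted p under 0.05, against 18.2% of genes). Depth was not matched there, with medians of 23738, 22453 and 17052.5 UMIs in Lrig1+ and 10007.5, 12130 and 8789 UMIs in Lrig1- cells. In the shallower cluster it called 0 of 77 members in either direction (0.0% of genes; 4 members at an unadjusted p under 0.05, against 5.31% of genes), and in the deeper cluster 0 of 79, against 0.132% and 0.066% of genes (5 members at an unadjusted p under 0.05, against 6.62% of genes). Spearman's rho with span was 0.073 over 79 members in the deeper cluster (0.023 over all genes) and 0.274 over 77 in the shallower (-0.0031 over all genes). Spag16 had 1609, 1633 and 1720 CPM in Lrig1+ and 1517, 1412 and 1458 CPM in Lrig1- cells of the deeper cluster (log2 0.17 ± 0.059, edgeR adjusted p = 0.481), and Dnah12 3372, 3552 and 3271 against 3062, 4119 and 2944 CPM. DESeq2 was not run within the clusters, and their sums hold fewer cells, down to 24 in the shallower and 42 in the deeper one.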

How the data were processed

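The authors sequenced 10x 3′ libraries of sorted larynx cells and made UMI count matrices with Cell Ranger 8.0.1 on mm39 (submitters' processing notes); the deposited counts are raw, whole UMIs per gene and barcode. Barcodes were kept where 500 to 8000 genes were detected, the total was 1000 to 40000 UMIs and mitochondrial genes took no more than 8% of it, and 4850 likely doublets were removed (208 of them passing the ciliated gate), scored against simulated doublets. Clusters (Leiden, igraph 0.11.9) were made from 2000 variable genes without any family member, gate gene or Lrig1, and named from marker lists of 6 genes. UMIs were summed per library and group of cells and tested with edgeR 4.0.16 (filterByExpr, TMM, quasi-likelihood, R 4.3.3), two-sided, Benjamini-Hochberg over all genes, threshold 0.05. SE is the log2 fold change divided by the square root of F. The study describes the 3 pools as biological replicates, each of pooled larynges, so p-values measure the spread between pools and not between animals. With the library as a block, they measure how far the difference between the groups of cells varied from pool to pool.

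The family members and all lists were chosen with earlier results of these data known. Genes named in the text were those of highest level in each role, those active outside ciliated cells and the largest changes per comparison; Tekt5, Spag5 and others named by contrast were added after their values were seen. The groups compared within a library come from the same animals, so the library pairs them: deviations of same-library sums correlated at 0.0717 to 0.373 for ciliated against other cells, 0.661 to 0.763 for Lrig1+ against Lrig1-, 0.683 to 0.774 for Lrig1High against Lrig1Low and 0.197 to 0.418 within ciliated cells. The study's methods give no design formula, so the library was no covariate at first and a block in an alternative. DESeq2 1.42.0, other scalings, filters, gates and left-out libraries were tried. The fits without the block were run on simulated data with 200 changed genes each, drawn with no library effect. The fits with the block were not, so the simulation does not bear on their calls. No deposited comparison columns were used. Near-copies (Dnah7a, Dnah7b and Dnah7c; Rsph3a and Rsph3b; Spag6 and Spag6l) and genes overlapping a neighbour on the same strand (Cfap141, Cfap43, Cfap97, Drc1 and Rsph10b) have uncertain counts.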

Additional observations from a re-analysis of the deposited data

How the results depend on the processing

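The count of members higher in ciliated cells was 78 and ran from 76 to 78 without 1 library, and the 76 without library 1 were among the 78. The count lower was 1, was 2 with all barcodes, and ran from 0 to 1 without 1 library. Among all genes, 4156 to 4996 were higher and 4915 to 5749 lower without 1 library, of 19339 to 20143 tested. With all barcodes 5197 of 19710 genes were higher and 5093 lower. Of 644 single-gene values in this comparison, 640 kept direction and side of the threshold and 4 lost the call with fewer samples. The mean share of ciliated cells was 3.20% and was lowest with all 6 gate genes (2.64%) and within 1 SD of it in each alternative tried. DESeq2 and no filter moved the median of all genes to 0.19 and -0.71, and no member changed direction. With the replicate block (the library pairing) the counts became 3 higher and 1 lower for Lrig1+ against Lrig1-, 2 and 58 for Lrig1High against Lrig1Low, and 30 and 13 within ciliated cells. The subsets of cells had 0 and 0 without the block: without ciliated cells it gave 5 and 30, and 9 and 2; in cells with 0 or 1 gate genes 6 and 12, and 6 and 2; without cluster 2, almost all of library 3, 3 and 1, and 2 and 62; without the 4 uneven clusters 3 and 1, and 2 and 59. The block changed no count in ciliated against other cells. Shares over all genes for the counts with the block are given with each comparison above. In Lrig1+ against Lrig1- cells, Spag16 had a log2 fold change of 0.69 without the block and 0.54 with it. With the block and without ciliated cells it was -0.86, and the cause was not tested. DESeq2 gave 1 higher for Lrig1+, 1 and 3 for Lrig1High, and 21 and 3 within ciliated cells. Within ciliated cells no filter gave 19 higher (3.24% of genes), and at least 5000 UMIs with the block 28 and 9. Leaving out 1 library there gave 0 to 1 higher (1 without library 3, where 7 of 11890 genes were higher). Of 160, 160 and 130 single-gene values in the 3 Lrig1 comparisons, 151, 132 and 97 kept direction and side of the threshold and 8, 28 and 33 gained the call. A limit of 0.2 in place of 0.1 of the ciliated level left 6 of 12 genes active outside. Depth limits the scarce members: those under 3 UMIs a library cannot be told from 0. The block, 0 or 1 gate genes, uneven cluster and within-ciliated alternatives include ones chosen after seeing the data.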
